A study of Homo sapiens with 4 samples.

Results

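Open chromatin regions of HL-60 cells that were found in every library and ranked higher after all-trans retinoic acid (ATRA) are described here. HL-60 is a human myeloid leukemia line from peripheral blood, and ATRA is the vitamin A metabolite that binds retinoic acid receptors. Open DNA was mapped by ATAC-seq, a method that lets the Tn5 transposase cut accessible chromatin and tag the ends with sequencing adapters. Cells were given 1 µM ATRA over 4 days in the ATRA group and ethanol alone over 4 days in the control group, with 2 replicates in each. Both groups were the same line in the same medium, and the study's text describes the replicates as independent and biological, which the labels do not state.

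The authors called peaks in each library separately, and each deposited list gives a peak's position and a score from the peak caller. Each peak was given its percentile by score within its own list, so that 100 is the highest peak of a library. Peaks of the 4 lists that overlapped by at least 1 bp were merged into 78063 regions, of which 23653 held a peak in every list and are called shared regions. A shared region was kept when the lower of its ATRA percentiles was above the higher of its control percentiles by at least 10 points, a difference called the margin below. This left 2759 regions, 11.7% of the shared regions. The opposite rule, with the control percentiles higher by the same margin, gave 1092 regions, or 4.62%. The ranks that chose these regions are given as a description and carry no test, and 2 libraries against 2 could in any case give no two-sided exact permutation p below 0.333.

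The excess of higher over lower regions depended on how the lists were ranked. The list of ATRA replicate 2 held 63541 peaks, against 43494 in ATRA replicate 1, 42081 in control replicate 1 and 45903 in control replicate 2, and the more weaker peaks a list holds outside the shared regions, the higher the percentiles of its shared regions. The median percentile of a shared region was 79.2 in ATRA replicate 2 and 68.9, 68.2 and 70.5 in the others, in the same order. When percentiles were taken among the shared regions alone, 2272 regions were higher and 2276 were lower. Of the 2759 regions, 1956 (70.9%) stayed higher on that scale, 803 fell below the margin and 0 became lower. Without ATRA replicate 2, when a region needed a peak in the other 3 lists, 3500 regions were higher and 4760 were lower, so the excess turned round. A higher rank therefore means that a region gained place relative to other peaks of its library, not that its read count rose, and the lists give no read counts from which depth could be known.

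Distal regulatory regions, or enhancers, are bound by transcription factors that recognise short motifs, and open chromatin marks where such proteins can reach DNA. In granulocytes PU.1, RUNX1 and the C/EBP factors are the main lineage factors, while GATA factors belong mainly to stem cells and to the erythroid, megakaryocytic and mast cell lineages. Retinoic acid receptors pair with retinoid X receptors on direct repeats such as DR5.

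The sequences that carry the description are shown first. Each is the 200 bp about the centre of a region, read from the GRCh37 assembly on the forward strand, with the matches to the GATA, PU.1, RUNX, CEBP or DR5 consensus in capitals. Each is named for the nearest protein-coding gene by start site, which need not be its target. These 2 are among the 20 largest margins. The windows lie at chr4:152774298-152774497, which is intergenic, and at chr4:87486912-87487111 in an intron of MAPK10. The first holds a PU.1 match and the other a GATA and a CEBP match.
GATB: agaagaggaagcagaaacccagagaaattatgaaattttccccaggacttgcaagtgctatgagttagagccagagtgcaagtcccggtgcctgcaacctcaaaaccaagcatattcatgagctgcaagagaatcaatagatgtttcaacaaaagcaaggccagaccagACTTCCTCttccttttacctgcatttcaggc
MAPK10: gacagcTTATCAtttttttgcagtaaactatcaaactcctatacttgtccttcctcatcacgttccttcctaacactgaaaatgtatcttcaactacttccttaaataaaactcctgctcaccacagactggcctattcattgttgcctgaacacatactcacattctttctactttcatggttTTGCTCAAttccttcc

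A pair of distal members matched the DR5 letters, and 1 of them is shown because DR5 is the element through which retinoic acid receptors are best known to act. The same letters in reversed order were as frequent in the distal regions with higher rank, so the match does not show a receptor element. The window was intergenic and very far from a gene, at chr11:80782064-80782263, 1630090 bp from the nearest start site, of TENM4. It also held a PU.1 and a RUNX match.
TENM4: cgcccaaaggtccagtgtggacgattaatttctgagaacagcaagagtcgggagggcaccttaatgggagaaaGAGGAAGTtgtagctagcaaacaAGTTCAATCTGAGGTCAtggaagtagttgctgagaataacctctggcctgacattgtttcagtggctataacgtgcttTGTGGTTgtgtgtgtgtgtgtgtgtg

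A further set lay near genes of the maturation and signalling lists. These windows lie at chr11:117881735-117881934 in an intron of SMIM35 near IL10RA, chr1:161532272-161532471 near FCGR3A and FCGR2A in an intron of a gene without a symbol, and chr6:36695555-36695754 in an intron of RAB44, with CPNE5 as the nearest gene and CDKN1A within 50 kb. The last held 3 RUNX matches.
IL10RA: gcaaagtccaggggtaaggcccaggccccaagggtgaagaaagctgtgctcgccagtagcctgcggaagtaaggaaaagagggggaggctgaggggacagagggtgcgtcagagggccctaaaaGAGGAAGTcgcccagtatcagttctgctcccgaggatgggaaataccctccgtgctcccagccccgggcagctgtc
FCGR3A: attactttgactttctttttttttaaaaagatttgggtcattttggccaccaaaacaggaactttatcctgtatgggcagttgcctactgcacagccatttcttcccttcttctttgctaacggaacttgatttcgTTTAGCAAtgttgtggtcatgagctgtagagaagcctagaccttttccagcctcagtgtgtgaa
CPNE5: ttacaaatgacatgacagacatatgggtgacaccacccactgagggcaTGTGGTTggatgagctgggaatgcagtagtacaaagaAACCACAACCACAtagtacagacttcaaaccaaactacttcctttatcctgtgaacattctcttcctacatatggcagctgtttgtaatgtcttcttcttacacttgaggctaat

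The margins were mostly modest. The median margin was 19.2 points and the largest was 92.3 points. There were 1482 regions with a margin from 10 to under 20 points, 670 from 20 to under 30, 340 from 30 to under 40, and 267 of 40 or more. At the threshold, the regions at the PHC2 promoter, in an intron of IPCEF1 and at the POMZP3 promoter were just inside, each with 10.01 points. Just outside were the ZNF616 promoter and an intron of KCNQ1, each with 9.99 points, and the KIAA1191 promoter with 9.985 points.

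**Figure D1:**
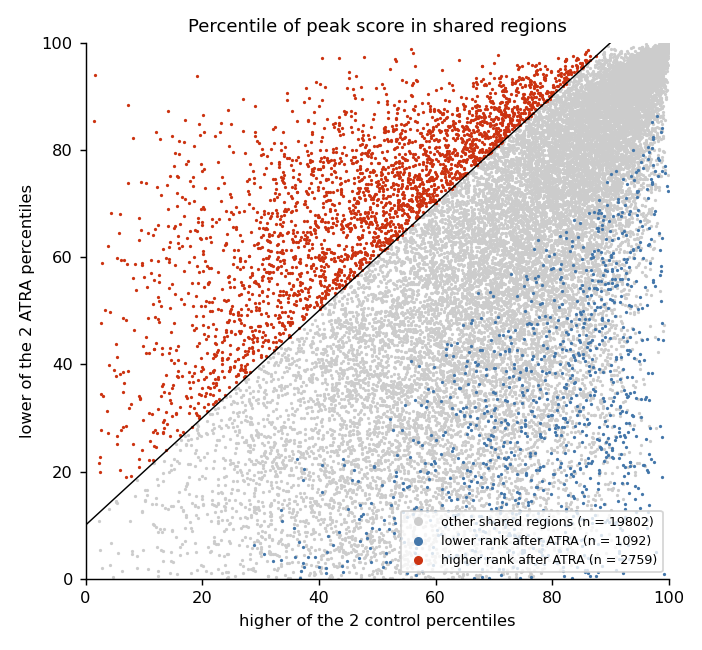
Each point is 1 of the 23653 shared regions, with the higher of its control percentiles on the horizontal axis and the lower of its ATRA percentiles on the vertical axis, both in percentile of peak score within a list. The line marks a margin of 10 points, and the 2759 regions above it are the ones described here. Regions near the right edge, with a control percentile above 90, have no room to rise by the margin.

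The median percentile of the regions with higher rank was 75.3 in ATRA replicate 1, 79.8 in ATRA replicate 2, 40.5 in control replicate 1 and 39.6 in control replicate 2. The rule itself places ATRA above control. Their median peak widths were 428 and 603 bp in ATRA replicates 1 and 2, against 306 and 285 bp for the controls. Over all shared regions the widths were 395, 581, 389 and 363 bp in the same order, so the wide peaks of ATRA replicate 2 were common to that library. In these regions the replicates differed by a median of 6.50 points in ATRA and 12.4 points in control, against 9.86 and 11.1 points over all shared regions. The rule chose on these same ranks, so the differences in the chosen regions do not measure reproducibility.

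**Figure D2:**
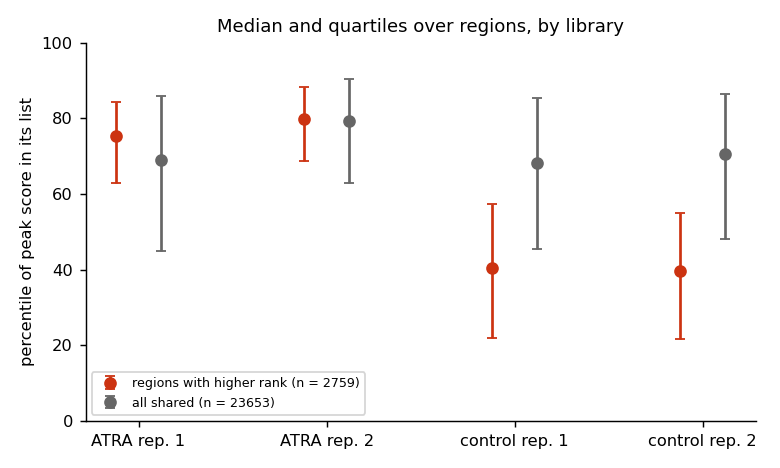
Points give the median and bars the quartiles over regions of the percentile of peak score, in each of the 4 libraries, for the 2759 regions with higher rank and for all 23653 shared regions. The medians of the regions with higher rank were 75.3 and 79.8 in ATRA and 40.5 and 39.6 in control.

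Most of these regions compared like with like. Exactly 1 peak per list lay under 2299 of them (83.3%, against 86.3% of all shared regions). The highest peaks of the 4 lists had at least 1 base in common in 2599 (94.2%, against 97.2%). Among the 20 largest margins this held for 15, the exceptions being the regions named for DNAJB12, ZNF569, SPDYE10, UQCR11 and CCL20, in which different peaks within one merged region may be compared.

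Because the rule used all 4 libraries, the same choice was also made on 1 pair of libraries and read in the other pair. Regions at least 10 points higher in ATRA replicate 1 than in control replicate 1 numbered 6333. Of these, 3884 (61.3%) were also at least 10 points higher in ATRA replicate 2 than in control replicate 2, where 39.7% of all shared regions were. In the other direction 41.4% of 9381 chosen regions were higher in the pair not used, against 26.8% of all shared regions.

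The crossed pairs gave smaller gaps. Of the regions chosen on ATRA replicate 1 against control replicate 2, 55.1% were higher in ATRA replicate 2 against control replicate 1, where 43.4% of all shared regions were, and in the opposite direction the shares were 35.4% and 27.8%. With ranks among the shared regions alone, the same-numbered pairs gave 49.3% against 29.8% and 47.0% against 28.4%, and the crossed pairs 38.1% against 29.4% and 41.9% against 32.3%. In each pairing the chosen regions were higher in the other pair more often than all shared regions. A choice on 1 pair may favour regions that start low. Among distal regions up to percentile 20 of control replicate 1, the median was 42.3 in control replicate 2 and 61.0 in ATRA replicate 2. Above 80 the medians were 89.8 and 89.6. The part of starting rank in the gaps was not tested, so they do not measure reproducibility. Between 38.7% and 64.6% of the chosen regions did not repeat the rise. The 2 directions of a pairing share 1 count, by whole-list rank 3884 same-numbered and 3627 crossed, so they are not separate readings. Both rankings also use the same scores. The shares over all shared regions include regions that started too high to rise by 10 points, and shares without them were not computed. Differences within a group were close in size to those between groups: by rank among the shared regions the median absolute difference was 10.3 points between the ATRA replicates and 12.6 between the controls, and it ran from 12.3 to 16.3 over the 4 pairs of an ATRA and a control library.

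The largest margin belonged to an intergenic region 67055 bp from a start site of ARHGAP20, which encodes a GTPase-activating protein. Replicates 1 and 2 gave percentiles of 94.0 and 96.2 after ATRA and of 1.67 and 0.670 in control, and paired values below are in the same order. The scores behind them were 409 and 513 after ATRA and 51.5 and 50.5 in control, where the lists begin at 50. It was therefore among the weakest peaks of both control lists and among the strongest of both ATRA lists, and the next regions followed the same pattern.

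In an intron of GRAMD1B, which encodes a cholesterol transfer protein, a region had percentiles of 85.4 and 85.6 after ATRA and 0.487 and 1.48 in control. The region upstream of TBC1D4, a Rab GTPase-activating protein, had 95.3 and 93.8 after ATRA and 4.41 and 19.2 in control. In each case both ATRA libraries stood far above both controls, as the rule requires.

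A region 17964 bp upstream of BTG2, an antiproliferative gene, had percentiles of 84.7 and 82.0 after ATRA and 10.8 and 12.8 in control. A region 107132 bp upstream of CXCR4, the chemokine receptor that retains cells in the marrow, had 85.5 and 92.9 after ATRA and 12.6 and 17.1 in control. Intronic regions of PRKCZ, an atypical protein kinase C, and of GNAQ, a G protein alpha subunit, had margins of 71.3 and 64.6 points. An intron of MAFK, a small MAF factor, held a region with a margin of 64.6 points.

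Of the 20, 3 were promoters. The promoter of CCL20, a chemokine for CCR6-bearing cells, had percentiles of 73.8 and 78.3 after ATRA and 10.3 and 7.34 in control. The promoter of ZNF569, a zinc finger gene, had 86.6 and 88.7 after ATRA and 15.2 and 20.1 in control. The promoter of UQCR11, a subunit of respiratory complex III, had 84.9 and 87.0 after ATRA and 5.80 and 19.5 in control. These 3 are among the 5 regions in which the highest peaks did not share a base. Other regions of the 20 were named for C19orf67, DNAJB12, GATB, MAPK10, SPDYE10, SLC14A2, IRF2BP2 and C18orf32, with margins from 63.2 to 74.2 points. The region named for SLC14A2 lay in an intron of SETBP1. SPDYE10 belongs to a family of near-identical copies, so reads there may be shared between copies.

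**Figure D3:**
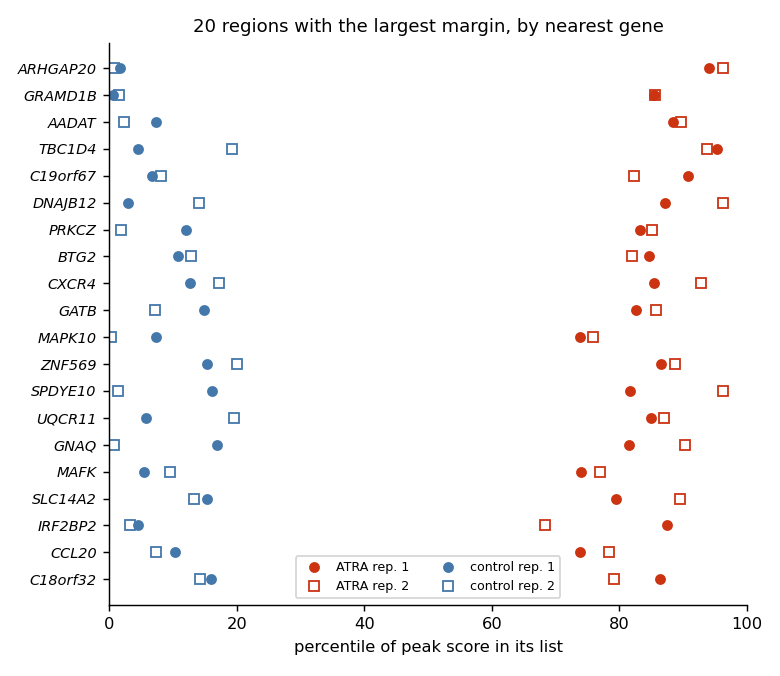
Percentile of peak score within its list in each of the 4 libraries for the 20 regions with the largest margin, named for the nearest protein-coding gene (filled circle, replicate 1; open square, replicate 2). All ATRA points lie at 68.3 or above and all control points at 20.1 or below, which follows from the choice of the largest margins.

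By position, 755 of the 2759 regions (27.4%, Wilson 95% interval 25.7 to 29.1) had their centre in a promoter, taken as 1 kb upstream to 100 bp downstream of a protein-coding start site. A further 948 (34.4%) lay in introns, 81 (2.94%) in exons and 975 (35.3%) between genes, and 49 of the exonic regions lay in a UTR of some transcript. Only protein-coding genes were used, so intergenic regions may lie in noncoding genes. All such intervals cover counting error over regions only. Over all shared regions 30.7% were promoters, and among those with lower rank 7.51% (6.09 to 9.23). The median distance to a start site was 12213 bp, against 12022 bp for all shared regions and 27162 bp for those with lower rank. Introns held 30.3% (29.7 to 30.9) of all shared regions, so the regions with higher rank held somewhat fewer promoters and more introns, and the regions with lower rank lay farther from start sites.

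The promoter share depended on where regions started. A region whose control percentile was above 90 could not rise by 10 points. Of the shared regions 5460 were in this position, and 55.0% of them were promoters. Among the 18193 that could rise, 23.3% (22.7 to 24.0) were promoters, which is below the 27.4% of the regions that did.

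At middle control ranks, promoters were among the risers more often than distal regions. The bands are made from control percentiles that the rule also used, so these shares are a description and carry no test. Where the higher control percentile was above 40 and up to 60, 288 of 685 promoters (42.0%, 38.4 to 45.8) and 719 of 3337 distal regions (21.5%, 20.2 to 22.97) had a higher rank. From there up to 80 the shares were 17.3% of 1595 promoters and 7.79% of 5664 distal regions, and from 20 up to 40 they were 55.6% of 216 and 41.9% of 1398. In the lowest and the highest band the intervals overlapped: up to 20 the shares were 76.2% (61.5 to 86.5) of promoters and 64.6% (59.4 to 69.4) of distal regions, and above 80, where 4712 of the 7250 promoters lay, they were 0.828% (0.606 to 1.13) and 0.601% (0.430 to 0.839). Above 80 the order reversed by rank among shared regions (0.521 and 0.693%) and without chromosome 19 (0.379 and 0.518%). With ranks among the shared regions alone the middle band gave 15.6% and 9.001%, and without chromosome 19 it gave 38.3% and 21.4%.

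Single libraries differed in how they ranked promoters. Among regions between percentiles 40 and 60 of control replicate 1, the median promoter stood at 46.8 in control replicate 2, 67.8 in ATRA replicate 1 and 70.6 in ATRA replicate 2. The median distal region stood at 58.9, 50.6 and 69.2. Promoters were therefore above distal regions in ATRA replicate 1, close to them in ATRA replicate 2 and below them in control replicate 2. Without control replicate 1, 34.0% of the regions with higher rank were promoters against 24.999% of the other shared regions, and without control replicate 2, 21.1% were against 33.1%, so the direction of the promoter share rested on which control was used. The part of these differences between libraries in the excess of promoters at middle control ranks was not tested.

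The promoter share also fell as the margin grew, from 30.2% (27.9 to 32.5) below 20 points to 26.6%, 23.5% and 18.7% (14.5 to 23.8) in the next bands. A margin of 40 points or more needs a higher control percentile of 60 or lower, where fewer of the shared regions were promoters. Up to a control percentile of 20 there were 42 promoters and 347 distal regions, against 4712 and 5657 above 80. The fall was not tested apart from starting rank. Among promoters with large margins, FAM111A had percentiles of 90.7 and 94.97 after ATRA and 28.4 and 34.6 in control. The promoter of CRK, a signalling adaptor, had 69.4 and 68.9 after ATRA and 8.45 and 14.1 in control.

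A search for 18 motifs was made on both strands in the 200 bp about each centre, and matches of different motifs may overlap. The PU.1 motif was GAGGAAGT. The RUNX motif was AACCACA. The CEBP motif was TTGCNNAA, where N is any base. The AP-1 motif was TGANTCA. The GATA motif was GATAA preceded by A or T, and the CTCF consensus was searched by name. A match describes the letters and not a bound factor. Of the 2004 distal regions with higher rank, 14.4% (12.9 to 16.0) held PU.1, against 9.43% (8.99 to 9.89) of all distal shared regions, 9.74% of those with room to rise and 7.43% (5.97 to 9.21) of those with lower rank. The reversed letters of PU.1, which have the same base composition, were in 1.55% of the distal regions with higher rank and 1.34% of all distal shared regions. The PU.1 interval of the regions with higher rank thus lay above those of both other groups, but it was not particular to them: regions short of the margin, from 0 to under 10 points, had 13.4% (12.01 to 14.9). Against the other shared regions its share was 1.35 to 1.69 times as high when any 1 library was left out, 1.71 times by rank among shared regions and 1.72 times with equal list lengths.

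GATA ran the other way. It was in 16.0% (14.4 to 17.6) of the distal regions with higher rank, 19.05% (18.5 to 19.7) of all distal shared regions and 36.9% (34.0 to 39.95) of those with lower rank. The reversed letters of GATA were in 14.8%, 14.1% and 13.7% of them, so that in the regions with higher rank the GATA share was near the level of these letters. The GATA share stayed below that of the other shared regions without any 1 library, at 0.737 to 0.779 times. Those other regions include the ones with lower rank. In the distal shared regions of neither group GATA was in 18.2% (17.5 to 18.8), an interval that overlaps that of the regions with higher rank. The low share was also not particular to them: regions short of the margin, from 0 to under 10 points, had 14.2% (12.7 to 15.7).

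RUNX was in 12.4% (11.0 to 13.9) of the distal regions with higher rank, above the 9.90% (9.45 to 10.4) of all distal shared regions, but it was also in 14.0% (11.96 to 16.2) of those with lower rank. CEBP was in 14.6% (13.1 to 16.2), 13.4% (12.9 to 13.9) and 16.3% (14.2 to 18.7) of the same groups. AP-1 was in 11.7% (10.4 to 13.2), 9.43% and 11.3% (9.48 to 13.4). Without ATRA replicate 1 the RUNX share was 9.49%, against 9.71% of the other shared regions, and the surplus was gone. For all 3 motifs the intervals of the regions with higher and with lower rank overlapped, and for CEBP so did those of the regions with higher rank and of all shared regions. At least 1 of PU.1, RUNX and CEBP was in 35.8% (33.8 to 38.0) of the distal regions with higher rank, 32.3% (29.5 to 35.2) of those with lower rank and 28.6% (27.9 to 29.3) of all distal shared regions.

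CTCF, the factor of loop anchors and domain borders, was less frequent in both moving groups than over all distal shared regions, but not in them alone. It was in 5.34% (4.44 to 6.41) of the distal regions with higher rank and 5.25% (4.03 to 6.80) of those with lower rank, against 9.52% (9.08 to 9.98) of all distal shared regions and 10.5% of those with room to rise. Regions just short of the margin, from 0 to under 10 points, had 5.395% (4.51 to 6.44), and those with no room to rise had 4.11% (3.396 to 4.97). The deficit depended on the libraries. Without ATRA replicate 1 the shares were 10.5% and 9.83% of the other shared regions, and without control replicate 2 they were 8.15% and 9.325%. It stayed without ATRA replicate 2 (5.37% and 10.1%) and without control replicate 1 (5.54% and 10.8%). Within the regions with higher rank the CTCF share fell from 6.67% (5.30 to 8.35) below a margin of 20 points to 2.30% (0.988 to 5.28) at 40 or more. PU.1 went from 13.3% (11.4 to 15.5) to 16.6% (12.2 to 22.1) over the same bands, within the intervals.

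**Figure D4:**
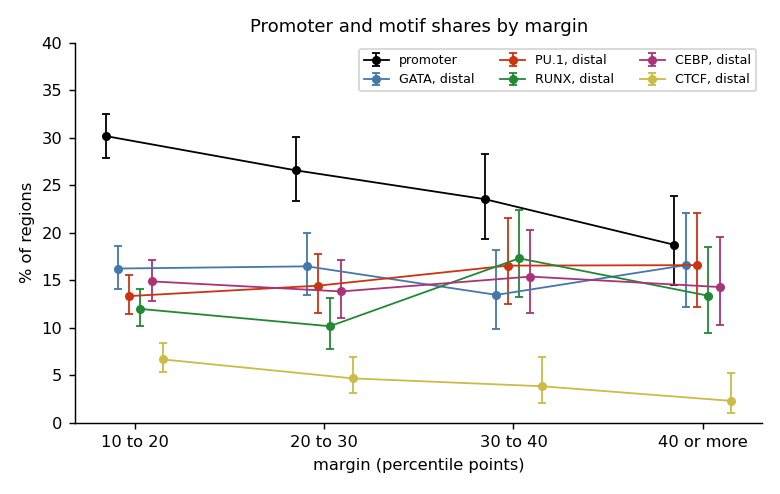
Share of regions with higher rank that were promoters (black) and share of the distal ones with each motif, in % on the vertical axis, by margin in percentile points, with Wilson 95% intervals. The promoter share falls from 30.2 to 18.7% and the CTCF share from 6.67 to 2.30%, while the intervals of the other motifs overlap between the lowest and the highest band. The shares are not adjusted for control percentile, which limits how large a margin can be.

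Other motifs are given for the distal regions with higher rank and for all distal shared regions, in that order. NF-kB was in 3.09% (2.42 to 3.95) and 2.69%, and its reversed letters in 3.49% and 3.72%. IRF was in 1.65% (1.17 to 2.30) and 1.13% (0.983 to 1.31). The MYB letters CAACTG were in 11.2% (9.87 to 12.6) and 10.4%. The KLF/SP letters GGGCGG were in 8.93% (7.76 to 10.3) and 10.5% (10.01 to 10.9). The E-box CACGTG was in 3.89% (3.13 to 4.83) and 4.05%. The ETS letters CCGGAAGT were in 0.399% (0.202 to 0.786) and 0.695% (0.579 to 0.834). The STAT letters TTCCNGGAA were in 0.549% and 0.469%. The CRE letters TGACGTCA were in 0.250% and 0.317%. The EGR letters GCGTGGGCG were in 0.0499%, which is 1 region, and 0.128%. Where both intervals are given they overlapped. DR5 was in 2 of 2004 and in 8 of all 16403 distal shared regions (0.0998% and 0.0488%). Its reversed letters were in 0.0998% and 0.0793%, so DR5 was no more frequent than these letters. In the regions with higher rank DR1 was in 2 and DR2 in 0, which allows a share of up to 0.191% at the Wilson bound. The DR5 region shown above, nearest to TENM4, had percentiles of 62.8 and 76.6 after ATRA and 14.5 and 9.76 in control, so that both ATRA values lay above both controls.

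Chromosome 19 stood apart. Of its 622 shared regions, 209 had a higher rank (33.6%), against 2550 of 23031 elsewhere (11.1%). The next shares were 19.7% on chromosome 22, 17.7% on chromosome 21, 16.8% on chromosome 20, 16.1% on chromosome 17 and 15.2% on chromosome 16. It held 7.58% of the regions with higher rank and 2.63% of all shared regions. The share was 32.8% with ranks among the shared regions, 34.0% in promoters and 32.7% in distal regions. In 10-Mb segments it ran from 28.0 to 43.8%, so that no single segment carried it. Chromosome 19's share of the regions with higher rank was 3.83 times its share of the other shared regions. This fell to 2.05 times without ATRA replicate 1 and 2.37 times without control replicate 2. Without ATRA replicate 2 it was 4.05 times and without control replicate 1 it was 4.40 times. By rank among the shared regions the medians of chromosome 19 were 78.2 and 71.3 after ATRA and 61.2 and 40.3 in control, so the controls stood apart.

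Peak numbers moved the same way. Chromosome 19 held 1538 and 1841 peaks after ATRA (3.54 and 2.90% of the list) and 1018 and 967 peaks in control (2.42 and 2.11%). On chromosome 19 the share fell with GC content from class 2 upward. When all shared regions were divided into 5 equal classes by the GC content of 100-kb windows, the share with higher rank was 0 of 6 regions in class 1, then 83.3% of 18 regions, 64.7% of 34, 39.0% of 77 and 29.2% of 487 on chromosome 19, while on the other chromosomes it rose from 9.63 to 13.3% over the 5 classes. Zinc finger genes are clustered on this chromosome. Where the nearest gene was a numbered ZNF gene, 53 of 97 regions had a higher rank (54.6%), against 29 of 352 on the other chromosomes (8.24%), and the remaining regions of chromosome 19 gave 156 of 525 (29.7%). The cause of these values was not tested.

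**Figure D5:**
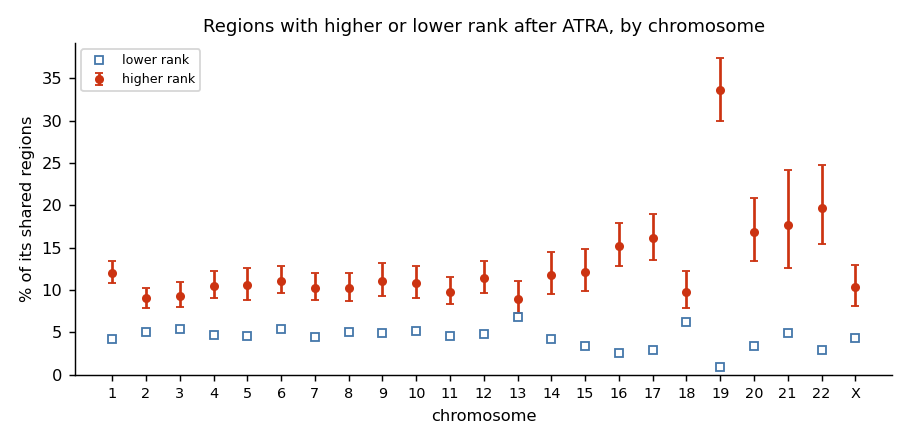
Share of the shared regions of each chromosome with higher rank (filled circles, Wilson 95% intervals) and with lower rank (open squares), in %. Chromosome 19 reaches 33.6%, and the next highest is chromosome 22 with 19.7%; chromosome Y, with 27 shared regions, is left out.

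Along the genome the regions were mostly single. Joined where they lay within 50 kb of each other, they formed 2465 groups, of which 2204 held 1 region and 26 held 3 or more. The largest group held 6 and lay on chromosome 19 at ERCC1, POLR1G, RTN2 and VASP, an actin regulator. In an intron of VASP the percentiles were 84.3 and 84.3 after ATRA and 19.3 and 32.4 in control.

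There were 55 genes with at least 3 of the regions nearest to them. MYC had 5, with margins from 11.9 to 26.0 points, all outside protein-coding genes and among 8 shared regions nearest to it. IRF2BP2, a corepressor, had 4 of 14, with margins of up to 63.9 points, while 3 of the 14 had a lower rank. Others with 4 were SLC14A2 (of 13), SEL1L (of 7), NAALADL2 (of 9, of which 2 were lower) and PTPRC (of 17, of which 2 were lower). PTPRC encodes CD45, the phosphatase of all leukocytes. CD34, the surface marker of progenitors, had 3, while 2 of the 9 shared regions nearest to it had a lower rank, so that both directions met at this gene.

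A region found only after ATRA was more often close by than for other shared regions. Regions with a peak in both ATRA lists and no control list numbered 6976, and 35.8% (34.1 to 37.7) of the regions with higher rank had one within 50 kb, against 32.3% (29.6 to 35.2) of those with lower rank and 29.7% (29.0 to 30.3) of the remaining shared regions. For the 2633 regions found in both control lists and no ATRA list the shares were 14.4%, 16.6% and 14.1%. The gap to the remaining shared regions was seen for regions found only after ATRA, and regions with lower rank lay between. Without ATRA replicate 1 the gap was gone, at 63.8% against 63.3% of the other shared regions, and without control replicate 2 it was 44.6% against 42.1%.

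Genes of 16 functional lists were linked to any region within 50 kb of a start site. Over all protein-coding genes with a shared region in that range, 26.4% had one with higher rank and 7.61% one with lower rank. On chromosome 19 the first share was 56.6%, and elsewhere 24.1%, so list counts are also given without it where it changes them. Neighbouring genes can share 1 region, and a link within 50 kb does not show that the region acts on the gene.

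In the AP-1 and NF-kB list, the factors of rapid inflammatory and stress responses, 12 of 20 genes had a region with higher rank (8 of 15 without chromosome 19). At the promoter of NFKB1, which encodes the p50 subunit, the percentiles were 93.7 and 94.5 after ATRA and 46.4 and 39.8 in control. The promoter of NFKBIA, the inhibitor that holds NF-kB in the cytoplasm, had 75.8 and 66.0 after ATRA and 51.3 and 25.01 in control, and it fell below the margin by rank among shared regions. The VASP intron described above lay 44967 bp from FOSB.

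In the chemoattractant and adhesion list 10 of 17 genes had such a region (5 of 11 without chromosome 19). By nearest gene the count was only 2, against 9 in the AP-1 and NF-kB list and 10 in the cytokine receptor list. The count of 10 therefore rested largely on regions nearer to other genes. ITGAM and ITGAX encode the alpha chains CD11b and CD11c of the leukocyte integrins. The ITGAM promoter had percentiles of 79.8 and 87.9 after ATRA and 58.2 and 32.9 in control, and an exon of ITGAX had 78.4 and 88.4 after ATRA and 30.9 and 34.5 in control. FPR1 and FPR2, receptors for formyl peptides, shared 1 region in an intron of SPACA6, 46576 and 47791 bp from their start sites. It had 90.3 and 95.4 after ATRA and 52.4 and 55.8 in control. All these regions stayed higher by rank among shared regions.

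In the NADPH oxidase and phagocytosis list, whose products make the neutrophil's oxidative burst, 4 of 10 genes were linked. By nearest gene the count was 2. The NCF4 promoter, of the p40phox subunit, had percentiles of 75.9 and 71.1 after ATRA and 36.8 and 39.2 in control. The region linked to FCGR2A, an Fc receptor for IgG, lay 48684 bp from its start site. It had 63.6 and 66.4 after ATRA and 14.0 and 19.6 in control, and the Fc receptor genes of this locus are near-identical copies. None of the 17 granule protein genes with a shared region in range was linked to a region with higher rank within 50 kb. By nearest gene 1 of them was, OLFM4, with 3 regions at 83522 bp or more from its start site.

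In the retinoid list 5 of 13 genes were linked (4 of 12 without chromosome 19). The promoter of RXRB, a retinoid X receptor, had percentiles of 83.2 and 82.6 after ATRA and 29.0 and 11.1 in control. An intron of CD38, a classic retinoic acid target gene, had 61.9 and 90.3 after ATRA and 14.3 and 3.55 in control, while 2 other regions in its range had a lower rank. At RARA the promoter had 85.8 and 80.6 after ATRA and 65.0 and 49.4 in control, and this did not hold by rank among shared regions.

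Signalling genes were linked often. The cytokine receptor list had 12 of 22 (12 of 21 without chromosome 19) and the interferon-stimulated list 11 of 25 (11 of 24). The region near IL10RA, the interleukin-10 receptor, had percentiles of 59.2 and 72.0 after ATRA and 14.3 and 13.3 in control, while the other shared region in range of this gene had a lower rank. A region at IFIT3, shared with IFIT2, had 80.9 and 79.8 after ATRA and 38.0 and 29.6 in control. In an intron of STAT3 a region also in range of STAT5A and STAT5B had 65.0 and 82.4 after ATRA and 18.8 and 13.9 in control.

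Survival genes gave 10 of 22 (8 of 20 without chromosome 19), with members of both kinds. The promoter of BCL2A1, an antiapoptotic member of the BCL2 family, had percentiles of 63.1 and 70.5 after ATRA and 31.9 and 36.8 in control. An intron of BID, a proapoptotic member, had 68.3 and 83.0 after ATRA and 21.1 and 26.2 in control, and the promoter of BAX, also proapoptotic, had 83.8 and 73.5 after ATRA and 35.6 and 35.8 in control.

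A further 7 lists had shares from 22.2 to 35.3%, on both sides of the 26.4% over all genes. They were Toll-like receptors and innate sensors with 6 of 17, lysosome and autophagy with 7 of 20, replication and mitosis with 7 of 22 (7 of 21 without chromosome 19), myeloid transcription factors with 7 of 24 (7 of 23), cell cycle inhibitors with 4 of 14 (4 of 13), immature progenitor genes with 4 of 13 (4 of 10), and lymphoid and erythroid genes, which HL-60 should lack, with 4 of 18 (2 of 15). Of the cell cycle inhibitors, CDKN1A, which encodes p21, was linked to a region in an intron of RAB44, 49157 bp from the CDKN1A start site. The percentiles of this region were 84.1 and 94.8 after ATRA and 30.0 and 40.9 in control. Both CDKN1A and BTG2 had 2 regions with higher rank and 1 with lower rank in range. The promoter of TLR1, a receptor for bacterial lipopeptides, had percentiles of 72.4 and 84.5 after ATRA and 46.9 and 42.6 in control. The promoter of SQSTM1, an autophagy adaptor, had 61.6 and 75.1 after ATRA and 16.0 and 1.61 in control, and 1 of the 6 shared regions in range of SQSTM1 had a lower rank. Lists differ in how many shared regions lie near their genes, with medians of 1 to 4 per gene, and their counts are descriptions without a test.

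The label of the cells was read against promoter peaks of marker genes. Of 8 maturation markers, 5 had a promoter peak in all 4 libraries, among them NCF1, NCF4, ITGAM and FCGR2A, and CYBB, FPR1 and CD38 had one in no library. Of 7 immature myeloid markers 0 had one in all 4 libraries and 5 had one in no library, and of 6 markers of other lineages 5 had one in no library. A promoter peak therefore did not separate the ATRA from the control group at any maturation marker.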

How the data were processed

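According to the labels and the study's methods, the authors treated nuclei with Tn5, removed adapters with cutadapt, aligned reads to hg19 with Bowtie2 and called peaks with MACS or MACS2 in each library separately. Whether reads were shifted for the Tn5 offset, the handling of duplicates and a blacklist filter are not given in the sources used here, so weak peaks may lie in repeats. The deposited score of each peak comes from the peak caller. Its scale is not stated, it ran from 50.0 to 3100, and it was used for ranking within a list only. The lists held 42081 to 63541 peaks. They hold no read counts, so the depth of each library is unknown.

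Percentiles, merging, location and motifs were computed with Python 3.11.15, numpy 2.4.6, pandas 2.3.3, scipy 1.17.1, pysam 0.24.0 and samtools 1.23.1, and plots with matplotlib 3.10.9. Ties took their average rank. Merging and ranking were tested on simulated peak lists, in which 185 of 200 planted regions were recovered, among them all 178 that started at control percentile 85 or lower. The simulated replicates differed far less than those of the data. The simulation therefore checked the code and not recovery or false calls in these libraries. The reference was GRCh37, the same assembly as hg19, with GENCODE release 44 lifted to it, and every peak fell within its chromosome. Positions count from 1. Groups came from the sample titles. No test was made on the ranks that chose the regions. The members and the lists of genes and motifs were chosen with earlier results of these data known. Genes were named by a rule: the 20 largest margins, list genes with a region in range, genes with at least 3 regions nearest, DR5 regions and the regions beside the threshold. The large-margin promoters FAM111A and CRK and the group at VASP were chosen after their values were seen. Some genes, sequences and 1 of the gene lists are not reported here. Alternatives changed the ranking, list length, margin, merging, ties, windows, distances and libraries.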

Additional observations from a re-analysis of the deposited data

How the results depend on the processing

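Of 156 recomputed values, 103 stayed within 1.5 times of a count or inside the Wilson interval of a share, and 53 moved. The number of regions with higher rank was 1277 at a margin of 20 points. The number with lower rank was 2276 by rank among shared regions, 1768 with equal list lengths, 1697 at a margin of 5 points and 495 at 20. Leaving out 1 library, which needs fewer peaks per region, gave 3500 to 7103 higher and 2226 to 4760 lower regions. The higher count was 6937 without ATRA replicate 1, 7103 without control replicate 1 and 6759 without control replicate 2, and the lower count outnumbered the higher without ATRA replicate 2.

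The promoter share was 24.6% with equal list lengths, 30.3%, 25.3% and 24.1% at margins of 5, 15 and 20 points, 24.4% with exactly 1 peak per list, 29.9% with a window of 1 kb to either side, 24.0% without chromosome 19 (chosen after seeing the data) and 18.7% to 34.0% without 1 library. In whole regions GATA, PU.1, RUNX and CEBP were in 38.2%, 17.5%, 18.8% and 30.3%. In distal regions they and CTCF were in 16.0%, 14.4%, 12.4%, 14.6% and 5.34%, and CTCF was in 3.13% at a margin of 20 points. Without 1 library the shares over all regions ran from 11.0 to 13.2% for GATA, 9.11 to 11.2% for PU.1, 8.16 to 9.44% for RUNX, 10.8 to 12.2% for CEBP and 3.90 to 8.78% for CTCF.

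The share within reach of a region found only after ATRA was 26.2% with equal list lengths, 21.7% at 25 kb, 54.3% at 100 kb and 44.6% to 63.8% without 1 library. The share of rises repeated in the other pair was 55.1% with crossed pairs, 49.3% by rank among shared regions, and 69.3%, 55.0% and 49.6% at margins of 5, 15 and 20 points.

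With the replicate number as a block, so that each ATRA library was set against the control of its number, 3884 regions were at least 10 points higher in both pairs (chosen after seeing the data). With 2 pairs the numbers were not shown to pair the samples: the difference between replicates in ATRA and that in control had a Spearman correlation of 0.23 across shared regions, which are not independent.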
